A study of Homo sapiens with 9 samples.

Results

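The genes described here are 9 genes of antigen presentation by MHC class I, namely HLA-B, HLA-C, HLA-E, B2M, TAP1, TAP2, TAPBP, ERAP1 and NLRC5. They were picked by name, for their role in this pathway, out of the 58233 gene IDs of the series, and each name matched 1 ID. Expression was measured by RNA sequencing of polyadenylated RNA from TC32, an established cell line derived from an Ewing sarcoma, a tumour of bone and soft tissue. There were 3 groups of 3 libraries. Inhibitor cells received Wnt3a, a ligand of canonical Wnt signalling, for 4 h and then SB-505124, an inhibitor of the TGF-β type I receptor kinases, for 24 h. Wnt3a cells received Wnt3a and then DMSO in place of the inhibitor, and vehicle cells received PBS and then DMSO. The labels do not say whether Wnt3a was still present in the second step. No group received SB-505124 without Wnt3a, so the inhibitor was measured only together with the ligand treatment, and all libraries come from a single cell line. Nothing in the labels ties the replicates of a group to different cultures. The tests therefore rest on the variation among these 9 libraries, and some or all of it could be technical.

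MHC class I molecules carry short peptides from proteins made inside the cell to the cell surface, where CD8+ T cells inspect them. Proteasomes cut the peptides, the TAP transporter pumps them into the endoplasmic reticulum, ERAP1 trims them, and tapasin helps to load them onto a heavy chain paired with β2-microglobulin. Transcription of the heavy chain genes and of several partners is raised by interferons and NF-κB, and is driven at their promoters by an assembly in which the activator NLRC5 joins DNA-binding factors of the RFX, CREB/ATF and NF-Y families. Ewing sarcoma is known as a tumour in which surface MHC class I is often low.

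The libraries held 28844348 to 42976799 expected counts, which puts 218 counts or more on each of the 9 genes in every library. The defining Ewing sarcoma markers were present in all of them, with CD99 at 945 to 1597 TPM and FLI1 at 20.2 to 27.2 TPM. The summed TPM of the 10 Ewing markers was 1384 to 1920 in inhibitor cells, 1940 to 2230 in Wnt3a cells and 2319 to 2620 in vehicle cells, and NKX2-2, LIPI, GLI1 and NR0B1 fell with the inhibitor against Wnt3a alone. The 10 leukocyte markers summed to 4.93 to 8.65, 3.74 to 5.04 and 3.17 to 4.42 TPM in inhibitor, Wnt3a and vehicle cells, with CD3E and MS4A1 at 0 and PTPRC at 0.13 TPM or less in all 9 libraries. Among the leukocyte markers CD68 rose with the inhibitor (log2 2.44, edgeR adjusted p = 0.000788). Summed fibroblast markers were 244 to 257, 393 to 589 and 344 to 529 TPM in inhibitor, Wnt3a and vehicle cells, while epithelial markers stayed at 2.61 TPM or less and endothelial markers at 1.48 TPM or less. The part of these marker lists in the results below was not tested. AXIN2 and NKD1, targets of Wnt signalling, rose with Wnt3a against vehicle by log2 2.61 and 2.69 (edgeR adjusted p = 0.000119 and 0.00299). PMEPA1, a TGF-β target, fell in inhibitor against Wnt3a cells by 1.79 on the log2 scale (edgeR adjusted p = 4.75e-06), while SMAD7, another, differed by log2 -0.27 (edgeR adjusted p = 0.157). On the second principal component, with 14.7% of the variance, inhibitor replicate 1, Wnt3a replicates 1 and 2 and vehicle replicate 2 lay between -66.9 and -8.19, and the other 5 libraries between 22.7 and 30.99. No label marks this split as a batch, and results that rest on these libraries are given with and without them.

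RefSeq promoter windows of build GRCh38.p14, which run from 250 bases before to 50 bases after a gene's start, were found for 7 of the 9 genes. HLA-E and NLRC5 have no entry. The windows were searched on both strands for the interferon-stimulated response element (ISRE), written as GAAA, any 2 bases and GAAA, and the 5 that hold it are shown because they include the genes with the highest and the lowest fold change below. Capitals mark the ISRE letters or their reverse complement.
TAP1: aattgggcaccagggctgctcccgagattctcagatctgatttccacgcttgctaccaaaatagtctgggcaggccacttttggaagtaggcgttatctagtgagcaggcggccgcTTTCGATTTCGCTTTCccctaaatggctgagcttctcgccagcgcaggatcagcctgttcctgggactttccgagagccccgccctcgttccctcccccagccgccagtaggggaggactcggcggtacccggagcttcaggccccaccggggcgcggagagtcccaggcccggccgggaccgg
TAP2: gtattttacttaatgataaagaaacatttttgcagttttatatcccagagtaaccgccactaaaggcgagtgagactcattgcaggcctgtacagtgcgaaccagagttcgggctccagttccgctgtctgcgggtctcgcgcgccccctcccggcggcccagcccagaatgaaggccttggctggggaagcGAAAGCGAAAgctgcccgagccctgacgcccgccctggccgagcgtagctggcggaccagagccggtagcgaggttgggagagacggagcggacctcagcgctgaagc
TAPBP: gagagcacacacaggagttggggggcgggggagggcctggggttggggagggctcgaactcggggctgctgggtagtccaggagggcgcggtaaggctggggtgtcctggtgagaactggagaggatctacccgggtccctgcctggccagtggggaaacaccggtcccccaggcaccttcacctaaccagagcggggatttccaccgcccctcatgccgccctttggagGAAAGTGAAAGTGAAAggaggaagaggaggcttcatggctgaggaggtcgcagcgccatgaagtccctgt
B2M: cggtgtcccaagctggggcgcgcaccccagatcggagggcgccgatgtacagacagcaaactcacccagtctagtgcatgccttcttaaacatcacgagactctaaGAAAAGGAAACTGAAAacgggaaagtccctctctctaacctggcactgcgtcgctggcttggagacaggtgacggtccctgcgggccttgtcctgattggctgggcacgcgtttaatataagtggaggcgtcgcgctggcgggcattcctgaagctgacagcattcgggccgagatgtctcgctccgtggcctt
ERAP1: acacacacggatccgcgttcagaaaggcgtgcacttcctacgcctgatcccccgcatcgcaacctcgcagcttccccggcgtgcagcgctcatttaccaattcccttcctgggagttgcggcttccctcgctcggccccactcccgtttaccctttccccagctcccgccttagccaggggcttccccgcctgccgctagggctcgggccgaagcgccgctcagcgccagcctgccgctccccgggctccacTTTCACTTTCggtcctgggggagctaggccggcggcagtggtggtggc
The TAP1 window is chr6:32853655-32853954 on the minus strand, the TAP2 window chr6:32838690-32838989 on the minus strand, and the TAPBP window chr6:33314029-33314328 on the minus strand. The B2M window is chr15:44711267-44711566 on the plus strand, and the ERAP1 window is chr5:96807896-96808195 on the minus strand. TAP1, TAPBP and B2M each hold 2 matches that share 4 bases, starting 134 and 128 bases before the start in TAP1, 20 and 14 in TAPBP, and 144 and 138 in B2M. TAP2 holds 1 match, 58 bases before its start, and ERAP1 holds 1, just after its start. Of all 35116 promoter windows, 3.57% hold this strict form of the ISRE. Because looser ISRE forms were not searched, the windows of HLA-B and HLA-C cannot be said to lack one. For TAP1 and ERAP1, which have more than 1 window, the window listed first was used.

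Other motifs were searched in the same 7 windows and on both strands. CCAAT, the core of the NF-Y site, was found in 5 of the 7 genes, with 3 matches in HLA-B and 4 in HLA-C, against 34.6% of all windows. TGACG, the core of the CREB/ATF site, was found in 4 of 7, against 24.6%. GGGA, any 3 bases and CCC, a strict NF-κB pattern, was found in HLA-B and ERAP1, against 7.59%. In HLA-B its 2 matches share 9 bases. Looser forms of the NF-κB site were not searched, so other windows cannot be said to lack one. The printed TAP1 window holds such a form, GGGACTTTCC, and the printed B2M window holds its reverse complement. CAGACA, a SMAD-binding pattern, was found in 3 of 7, against 16.9%. Neither TTCNNNGAA, the gamma-activated site, nor CTTTGA, a TCF/LEF pattern, was found in any of the 7 windows listed first, against 7.66% and 12.9%. The second window of TAP1 holds 1 match of each, 189 and 225 bases before its own start. No match of 1 motif overlapped a match of another. These are matches of letters and not measured sites of binding.

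In inhibitor cells against Wnt3a cells, 6 of the 9 genes rose, 1 fell and 2 did not pass the test. The 6 were the heavy chain genes HLA-B, HLA-C and HLA-E, both TAP genes and TAPBP, and the gene that fell was ERAP1. The largest rise was that of TAP1, 3.46-fold, and the next was that of HLA-E, 2.64-fold. Of the 17880 genes tested, 50.4% passed the test in this comparison, 24.5% as higher and 25.9% as lower. The median log2 fold change was 0.71 over the 9 genes and -0.06 over all genes tested. Groups did not overlap in 8 of the 9, the exception being HLA-B, and in 58.1% of all genes tested. In inhibitor cells against vehicle cells, 6 rose and 1 fell where 49.7% of genes tested passed, 25% as higher and 24.8% as lower. There B2M took the place of TAPBP among the 6, none of the 9 overlapped between groups, where 58.4% of all genes tested did not, and the median was 0.66 against -0.04 over all genes. The inhibitor libraries are shared by both comparisons, so these are not independent counts. In bulk RNA, a change in the share of cells that express a gene and a change in the RNA per cell cannot be told apart. Without the 4 libraries at the low end of the second component, which leaves 1 Wnt3a library assumed to vary like the others, 5 rose and 1 fell against Wnt3a, where 50.2% of the genes tested in that fit passed, and 6 rose and 1 fell against vehicle, where 57.6% passed.

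**Figure D1:**
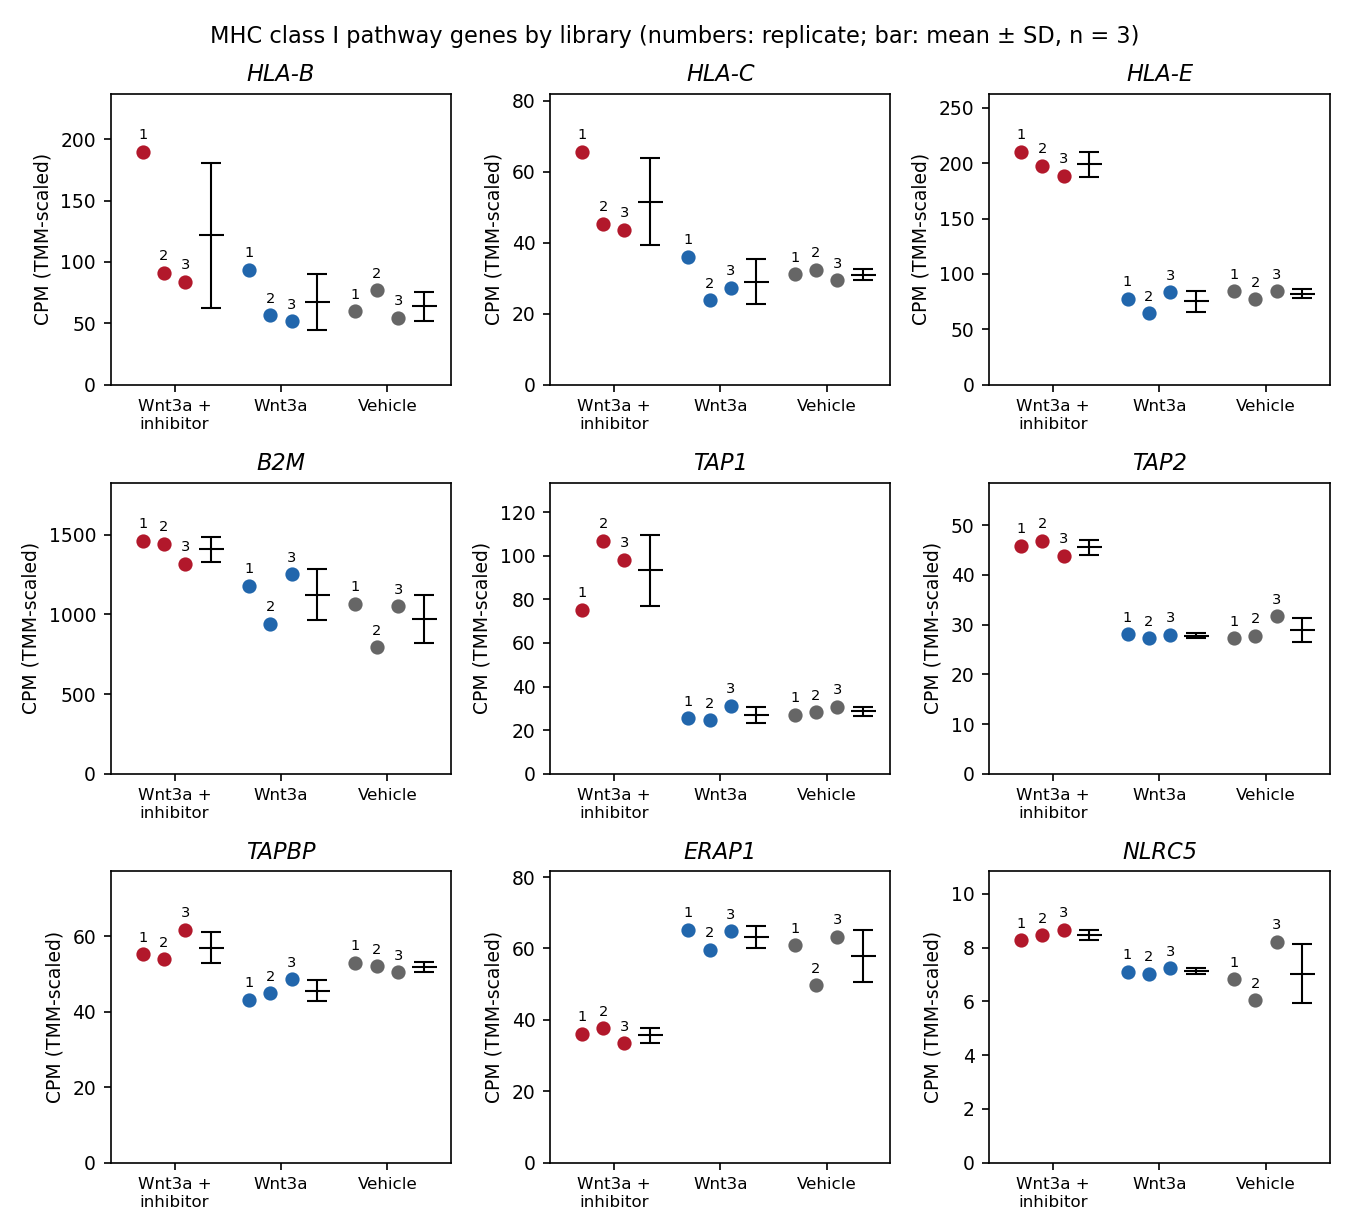
Level of each of the 9 genes in every library, in CPM (counts scaled to library size with TMM factors) on a linear axis from 0, with inhibitor, Wnt3a and vehicle cells from left to right. Numbers give the replicate and black bars the mean ± SD of 3 libraries. The inhibitor libraries stand clear of the other 6 in TAP1, TAP2, HLA-C and HLA-E above and in ERAP1 below, while HLA-B has 1 high inhibitor library.

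These counts depend on how the libraries are scaled. With library totals in place of TMM factors, the median over all genes tested moved to -0.31 against Wnt3a and -0.27 against vehicle, and 2828 genes were called higher and 6425 lower against Wnt3a, where the TMM values were 4379 and 4634. Against vehicle the library totals gave 3061 higher and 6036 lower, where TMM gave 4462 and 4433. On that scale HLA-C, HLA-E, TAP1 and TAP2 still rose and ERAP1 still fell in both comparisons, and HLA-B, B2M, TAPBP and NLRC5 did not pass. With log2(TPM + 1), 2293 genes were higher and 6352 lower against Wnt3a, and 2722 higher and 5462 lower against vehicle.

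The heavy chains bind the peptide and are what T cells and natural killer cells recognise. HLA-E, which presents mostly the leader peptides of other class I chains to the NKG2A receptor of natural killer cells, had 210.2, 198 and 188 CPM in inhibitor libraries 1 to 3. It had 77.5, 64.4 and 83.7 CPM in Wnt3a libraries and 84.4, 77.3 and 84.2 CPM in vehicle libraries. All 3 inhibitor libraries were higher than the highest of the other 6, with no overlap. The log2 fold change was 1.40 against Wnt3a (SE 0.109, edgeR adjusted p = 9.67e-06) and 1.28 against vehicle (SE 0.108, edgeR adjusted p = 1.45e-05). HLA-E (ENSG00000204592.8) spans chr6:30489467-30494205 on the plus strand in GENCODE 29, and 5.13% of the 50-base windows of its longest transcript also occur in transcripts of other genes.

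HLA-C, a classical heavy chain that also engages killer immunoglobulin-like receptors, had 65.6, 45.4 and 43.7 CPM in inhibitor libraries. Wnt3a libraries had 36.1, 23.8 and 27.4 CPM, and vehicle libraries 31.1, 32.4 and 29.4 CPM. Inhibitor libraries were again above all others, with replicate 1 the highest. The change was log2 0.83 against Wnt3a (SE 0.185, edgeR adjusted p = 0.00424) and 0.73 against vehicle (SE 0.185, edgeR adjusted p = 0.00792). Without the 4 libraries at the low end of the second component, which leaves 1 Wnt3a library, it was 0.70 and 0.56. On the log2(TPM + 1) scale it missed the threshold in both comparisons (limma adjusted p = 0.0782 and 0.0773).

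HLA-B, the other classical chain measured here, had 189.8 CPM in inhibitor replicate 1, against 91.3 and 83.9 CPM in inhibitor replicates 2 and 3. It had 93.7, 56.8 and 51.9 CPM in Wnt3a libraries and 59.7, 77.1 and 54.6 CPM in vehicle libraries. In each group the highest value belonged to a library at the low end of the second component, and Wnt3a replicate 1 lay above inhibitor replicates 2 and 3. The log2 fold change was 0.85 against Wnt3a (SE 0.322, edgeR adjusted p = 0.0489) and 0.93 against vehicle (SE 0.323, edgeR adjusted p = 0.0351). Both calls were close to the threshold and leant on inhibitor replicate 1, without which the changes were 0.38 (edgeR adjusted p = 0.207) and 0.46 (edgeR adjusted p = 0.138). The call against Wnt3a was also lost without Wnt3a replicate 2 or 3 (edgeR adjusted p = 0.146 and 0.135) and without any of the 3 vehicle libraries, which enter the shared fit (edgeR adjusted p = 0.0536 to 0.0681). The call against vehicle was also lost without vehicle replicate 1 or 3 (edgeR adjusted p = 0.0949 and 0.106). With all 4 libraries of the low end left out the changes were 0.75 and 0.62. That fit leaves 1 Wnt3a library and drops the highest HLA-B value of each group, so it cannot decide these calls. The mean transcript length that the authors' tables give for HLA-B was also apart in inhibitor replicate 1, at 965 bases, against 1197 and 1215 in inhibitor replicates 2 and 3 and 1115 to 1264 in the other 6 libraries.

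HLA-B and HLA-C are near copies of each other and of other class I genes, so part of their counts is an estimate. In GENCODE 29, 2.54% of the 50-base windows of the longest HLA-B transcript and 6.71% of those of HLA-C occur in other genes, and the 2 genes share 35 exonic bases. HLA-B (ENSG00000234745.10) spans chr6:31269491-31357188 and HLA-C (ENSG00000204525.16) spans chr6:31268749-31272130, both on the minus strand. The HLA-B annotation includes a long span that covers part of HLA-C.

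B2M encodes β2-microglobulin, the invariant light chain that every class I heavy chain needs to fold and reach the surface. It was by far the most abundant of the 9. Inhibitor libraries had 1463, 1445 and 1319 CPM, Wnt3a libraries 1179, 943 and 1254 CPM, and vehicle libraries 1067, 794 and 1051 CPM. The inhibitor libraries were above all others. B2M rose by log2 0.54 against vehicle (SE 0.139, edgeR adjusted p = 0.00899), and its change of 0.32 against Wnt3a did not pass (SE 0.139, edgeR adjusted p = 0.0751). It did pass without vehicle replicate 2 (edgeR adjusted p = 0.0391) or without Wnt3a replicate 3 (edgeR adjusted p = 0.0497). On the TPM scale the B2M levels of inhibitor cells, 2688, 2682 and 2517 TPM, lay within the range of Wnt3a cells, 2963, 2501 and 3001 TPM. Vehicle cells had 2535, 1842 and 2535 TPM, so inhibitor replicate 3 lay below vehicle replicates 1 and 3. The mean B2M transcript length in the authors' tables was 686 ± 2.999 bases in inhibitor cells, 652 ± 12.6 in Wnt3a cells and 656 ± 5.11 in vehicle cells (SD, n = 3 each). B2M (ENSG00000166710.17) spans chr15:44711487-44718877 on the plus strand, and none of its 50-base windows occur in another gene.

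Per length, the summed TPM of HLA-B, HLA-C and HLA-E was 15.0%, 8.34% and 8.60% of B2M in inhibitor libraries. The share was 7.38%, 5.60% and 4.88% in Wnt3a libraries and 5.91%, 9.06% and 5.71% in vehicle libraries. Other heavy chain genes were not summed. Inhibitor libraries were above all Wnt3a libraries but not above vehicle replicate 2. The log2 ratio differed by 0.80 between inhibitor and Wnt3a cells (2-sided exact permutation p = 0.1, the smallest that 3 against 3 can give) and by 0.60 between inhibitor and vehicle cells (2-sided exact permutation p = 0.3). Without inhibitor replicate 1, which had the highest share, these differences were 0.53 and 0.33. HLA-E was 0.40, 0.98 and 1.03 times the TPM of HLA-B in inhibitor libraries, against 0.35, 0.54 and 0.75 in Wnt3a libraries and 0.67, 0.48 and 0.73 in vehicle libraries. Inhibitor replicates 2 and 3 were above all other libraries in this ratio, and inhibitor replicate 1 was within their range.

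TAP1 and TAP2 encode the subunits of the transporter that moves peptides from the cytosol into the endoplasmic reticulum. TAP1 had 75.2, 107 and 98.1 CPM in inhibitor libraries. It had 25.4, 24.6 and 31.1 CPM in Wnt3a libraries and 27.0, 28.2 and 30.8 CPM in vehicle libraries. The lowest inhibitor library, replicate 1, was still far above the highest of the other 6. TAP1 rose 3.46-fold against Wnt3a (95% interval 2.75 to 4.34; log2 1.79, SE 0.147, edgeR adjusted p = 1.36e-05). Against vehicle the rise was 3.26-fold (95% interval 2.597 to 4.08; log2 1.70, SE 0.147, edgeR adjusted p = 1.59e-05).

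TAP2 changed less than its partner. Inhibitor libraries had 45.9, 46.8 and 43.8 CPM, Wnt3a libraries 28.1, 27.2 and 27.9 CPM, and vehicle libraries 27.2, 27.7 and 31.7 CPM. The groups were tight and the inhibitor libraries stood above all others. The rise was log2 0.71 against Wnt3a (SE 0.094, edgeR adjusted p = 0.000184) and 0.66 against vehicle (SE 0.094, edgeR adjusted p = 0.000303). Per length, TAP1 was 1.93, 3.38 and 2.90 times the TPM of TAP2 in inhibitor libraries, against 1.53, 1.03 and 1.52 in Wnt3a libraries and 1.56, 1.52 and 1.45 in vehicle libraries. This ratio did not overlap between inhibitor libraries and the rest. TAP2 shares 2064 exonic bases, 32.3% of its own, with XXbac-BPG246D15.9 on the same strand, a gene given 0 to 36.8 counts per library where TAP2 had 968 to 1540.

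TAP1 and TAP2 lie in the class II region of chromosome 6 together with PSMB8 and PSMB9, which encode catalytic subunits of the immunoproteasome, the form of the proteasome whose cuts favour peptides for class I. TAP1 (ENSG00000168394.10) spans chr6:32845209-32853978 and TAP2 (ENSG00000204267.13) spans chr6:32821833-32838780, both on the minus strand. The RefSeq starts of TAP1 and PSMB9 lie 488 bases apart on opposite strands, so that the genes are read away from each other. PSMB9 had 8.501, 7.76 and 9.46 CPM in inhibitor libraries, 3.09, 2.72 and 4.01 CPM in Wnt3a libraries and 3.32, 4.02 and 4.45 CPM in vehicle libraries. It rose with the inhibitor by log2 1.39 against Wnt3a (SE 0.208, edgeR adjusted p = 0.000397) and 1.12 against vehicle (edgeR adjusted p = 0.00137). PSMB8 rose by log2 1.11 (SE 0.113, edgeR adjusted p = 4.28e-05) and 0.82 (edgeR adjusted p = 0.000238). All 4 neighbouring genes thus rose in both comparisons, TAP2 the least, and TAP2 missed the threshold against Wnt3a on the log2(TPM + 1) scale (limma adjusted p = 0.0711). TAP1 shares 456 exonic bases on the opposite strand with PSMB8-AS1, which had 27.1 to 138 counts per library.

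**Figure D2:**
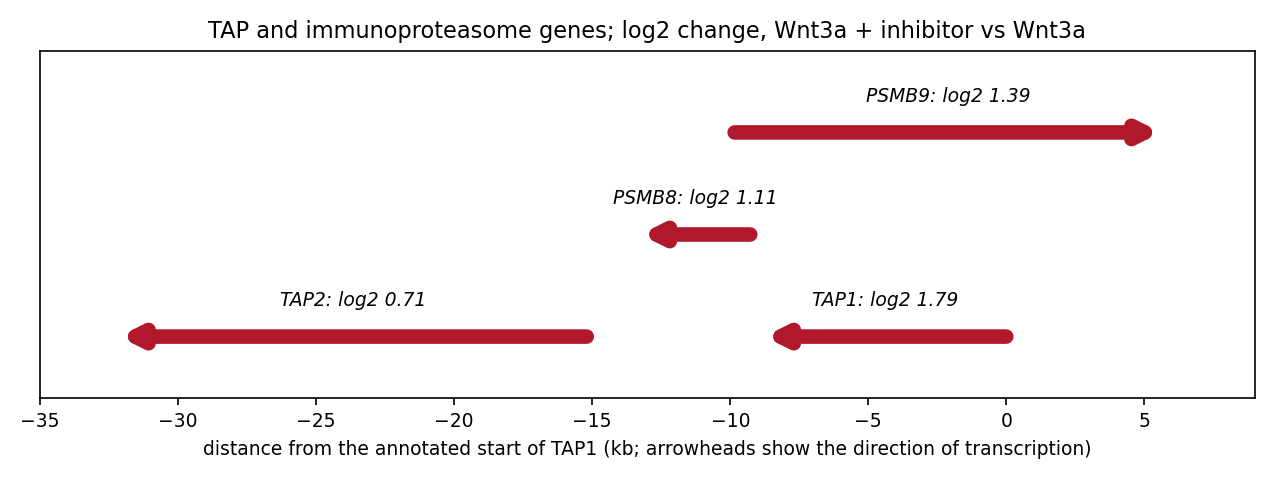
TAP2, PSMB8, TAP1 and PSMB9 drawn to scale along the x axis, in kb from the GENCODE 29 start of TAP1, with arrowheads in the direction of transcription; rows only keep the genes apart. Labels give the log2 fold change of inhibitor against Wnt3a cells, 0.71 for TAP2, 1.11 for PSMB8, 1.79 for TAP1 and 1.39 for PSMB9. The PSMB9 span includes an annotated transcript that begins far upstream of its RefSeq start.

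TAPBP encodes tapasin, which tethers empty class I molecules to TAP and edits their peptides. It had 55.2, 54.0 and 61.7 CPM in inhibitor libraries, 43.2, 44.9 and 48.7 CPM in Wnt3a libraries and 53.0, 52.1 and 50.5 CPM in vehicle libraries. Inhibitor libraries were above vehicle libraries, and vehicle libraries above Wnt3a libraries, by narrow margins. Against Wnt3a, TAPBP rose by log2 0.32 (SE 0.091, edgeR adjusted p = 0.0138). This call was lost without inhibitor replicate 3 (edgeR adjusted p = 0.059), without Wnt3a replicate 1 (edgeR adjusted p = 0.0574) and with library totals (edgeR adjusted p = 0.508). Without the 4 libraries at the low end of the second component its adjusted p was 0.0795 (edgeR). Against vehicle the difference was 0.14 (95% interval -0.07 to 0.34, edgeR adjusted p = 0.24). TAPBP (ENSG00000231925.11) spans chr6:33299694-33314387 on the minus strand.

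ERAP1 encodes the aminopeptidase of the endoplasmic reticulum that trims the front end of peptides to the length class I binds, and it moved against the others. Inhibitor libraries had 36.1, 37.7 and 33.5 CPM, Wnt3a libraries 65.2, 59.6 and 64.8 CPM, and vehicle libraries 60.9, 49.6 and 63.3 CPM. Every inhibitor library was below every other library. ERAP1 fell by 0.82 on the log2 scale against Wnt3a (SE 0.110, edgeR adjusted p = 0.000198) and by 0.70 against vehicle (SE 0.110, edgeR adjusted p = 0.000527). Its homologue ERAP2 also trims the front end of peptides. ERAP2 had 58.4, 59.3 and 55.1 CPM in inhibitor libraries and 24.3, 24.0 and 30.6 CPM in Wnt3a libraries. In vehicle libraries it had 34.7, 25.9 and 34.9 CPM. ERAP2 rose by log2 1.13 against Wnt3a (SE 0.141, edgeR adjusted p = 0.000135) and 0.86 against vehicle (edgeR adjusted p = 0.00068). The trimming pair thus changed in opposite directions. ERAP1 (ENSG00000164307.12) spans chr5:96760810-96808100 on the minus strand and shares 299 exonic bases with CAST on the opposite strand, which had 7160 to 10424 counts per library. None of the 50-base windows of ERAP1 occur in another gene.

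NLRC5, the activator of class I genes, was the least abundant of the 9. It had 8.27, 8.46 and 8.66 CPM in inhibitor libraries, 7.09, 7.03 and 7.24 CPM in Wnt3a libraries and 6.83, 6.03 and 8.22 CPM in vehicle libraries. The inhibitor libraries were highest, by a margin that in the case of vehicle replicate 3 was slight. The change of log2 0.25 against Wnt3a (95% interval -0.10 to 0.60, edgeR adjusted p = 0.206) and 0.27 against vehicle (95% interval -0.08 to 0.62, edgeR adjusted p = 0.178) did not pass the test. The upper bounds correspond to 1.51-fold and 1.53-fold. NLRC5 (ENSG00000140853.15) spans chr16:56989485-57083531 on the plus strand.

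**Figure D3:**
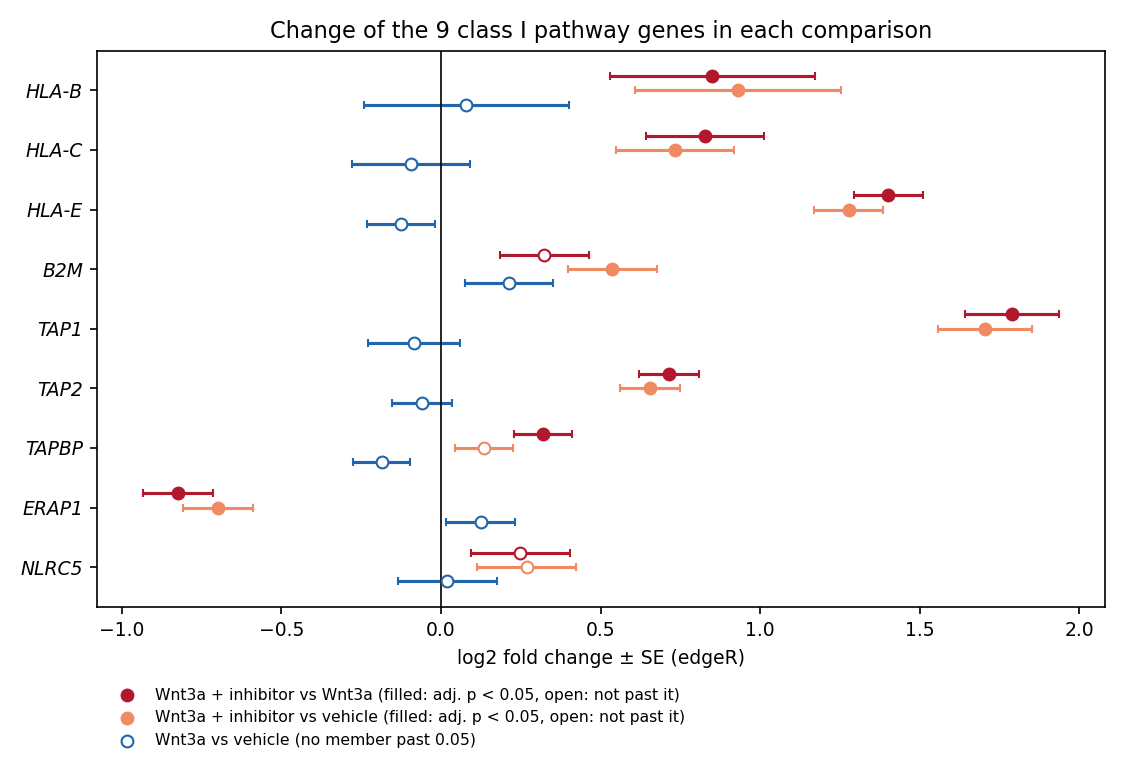
Log2 fold change ± SE (edgeR) of each of the 9 genes in the 3 comparisons, with filled points for adjusted p under 0.05 and open points for the rest. Red and orange points, the inhibitor against Wnt3a and against vehicle, lie side by side, at 1.79 and 1.70 for TAP1 and at -0.82 and -0.70 for ERAP1. Blue points, Wnt3a against vehicle, lie between -0.19 and 0.21.

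Wnt3a alone, set against vehicle, called 0 of the 9 genes with edgeR, where 0.419% of the genes tested passed, 0.397% as higher and 0.0224% as lower. At an unadjusted p under 0.05 the count was also 0, against 7.62% of all genes tested, and DESeq2 and limma-voom called 0 as well. Log2 fold changes ran from -0.19 for TAPBP to 0.21 for B2M, and the median was -0.06 against 0.01 over all genes. TAPBP was the single gene of the 9 whose groups did not overlap, against 17.5% of all genes tested, with 45.6 ± 2.79 CPM in Wnt3a cells and 51.9 ± 1.26 CPM in vehicle cells (SD, n = 3 each; edgeR adjusted p = 0.705). The intervals limit what a change could have been. For TAP1 the fold was 0.942 (95% interval 0.754 to 1.18) and for HLA-E 0.918 (95% interval 0.778 to 1.08), while for HLA-B it was 1.06 (95% interval 0.645 to 1.73). The log2 ratio of the summed heavy chains to B2M differed by -0.20 between Wnt3a and vehicle cells (2-sided exact permutation p = 0.5). Without vehicle replicate 2, the library with the lowest B2M level, that difference was 0.013.

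Per length, the order of levels in inhibitor cells was B2M at 2629 ± 97.1 TPM, HLA-B at 141 ± 88.4, HLA-E at 93.1 ± 3.59, HLA-C at 46.3 ± 13.4, TAP1 at 38.7 ± 6.96, TAPBP at 21.5 ± 3.39, TAP2 at 14.4 ± 1.47, ERAP1 at 13.4 ± 1.21 and NLRC5 at 3.44 ± 0.398 TPM (SD, n = 3 each). Libraries overlapped between HLA-B and HLA-E, between HLA-C and TAP1, and between TAP2 and ERAP1. In Wnt3a cells ERAP1, at 28.8 ± 2.90 TPM, came next after HLA-C, with overlap, and ahead of TAPBP at 21.6 ± 1.996, TAP1 at 14.4 ± 1.53 and TAP2 at 10.9 ± 2.31 TPM, the last pair overlapping. In vehicle cells the order was as in Wnt3a cells, from B2M at 2304 ± 400.1 TPM and HLA-B at 75.7 ± 12.7 TPM to NLRC5 at 3.83 ± 0.626 TPM, and only ERAP1 and TAPBP overlapped. In inhibitor cells TAP1 was thus ahead of ERAP1 and TAPBP, and in Wnt3a and vehicle cells it was behind both.

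Related genes were read from lists chosen with earlier results of these data known, and their counts are descriptions to set beside the shares over all genes. Most of the immunoproteasome and PA28 activator genes rose, as the TAP genes did. PSME2, a PA28 gene, differed by log2 -0.01 against Wnt3a (edgeR adjusted p = 0.943) and -0.08 against vehicle (edgeR adjusted p = 0.523). Of 5 measured, 4 rose against Wnt3a (PSMB8, PSMB9, PSME1 and PSMB10) and 3 against vehicle (PSMB8, PSMB9 and PSME1), and none fell, with medians of 0.61 and 0.38. The constitutive catalytic subunits PSMB5, PSMB6 and PSMB7, which the immunoproteasome subunits replace, all rose as well, by log2 0.42 to 0.53 against Wnt3a and 0.27 to 0.46 against vehicle. None of these 3 passed on the log2(TPM + 1) scale against Wnt3a. PSMB8 was 0.193, 0.177 and 0.169 times the TPM of PSMB5, the subunit it replaces, in inhibitor libraries, against 0.117, 0.106 and 0.118 in Wnt3a libraries and 0.138, 0.114 and 0.124 in vehicle libraries, with no overlap between the inhibitor libraries and the rest.

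Of 11 other genes of peptide loading and trimming, 5 rose and 2 fell against Wnt3a, and 4 rose and 2 fell against vehicle, with medians of 0.09 and 0.11. SPPL3, an intramembrane protease, rose by log2 0.92 against Wnt3a (edgeR adjusted p = 5.8e-05). UGGT1, the glucosyltransferase that tests the fold of glycoproteins, fell by 0.84 on the log2 scale (edgeR adjusted p = 4.97e-05), and PDIA3, the disulphide isomerase of the loading complex, fell by 0.24 (edgeR adjusted p = 0.0449), a call held in 9 of 20 alternatives. The other genes called were less stable. HM13 held its call against Wnt3a in 10 of 20 alternatives (log2 -0.03 to 0.39) and NRDC in 6 of 20 (log2 -0.16 to 0.26), so both turned sign in some. Of the chaperone genes, CANX rose by log2 0.41 (edgeR adjusted p = 0.032), held in 13 of 20, and CALR, for its partner calreticulin, differed by 0.09 (edgeR adjusted p = 0.457). On the log2(TPM + 1) scale this list had 2 rises and 3 falls. Of 6 other class I and class I-like chains measured, 3 rose against Wnt3a and 4 against vehicle, with medians of 0.62 and 0.77. MR1, which presents vitamin metabolites to MAIT cells, rose by log2 0.78 (edgeR adjusted p = 9.58e-05), HFE, a regulator of iron uptake, by 0.86 (edgeR adjusted p = 0.000318), and FCGRT, the neonatal Fc receptor chain, by 0.57 (edgeR adjusted p = 0.00071). HLA-G rose against vehicle (log2 0.9997, edgeR adjusted p = 0.0276), held in 14 of 20 alternatives. FCGRT held its call against vehicle in 10 of 20 and its sign turned in some (log2 -0.01 to 0.34). On the log2(TPM + 1) scale 1 of the 6 rose against Wnt3a.

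Among 16 regulators of class I transcription, 9 rose and 3 fell against Wnt3a and 8 rose and 3 fell against vehicle, with medians of 0.38 and 0.37. The DNA-binding partners of NLRC5 were split. RFX5, the largest subunit of the RFX complex, had 66.9, 55.6 and 56.8 CPM in inhibitor libraries, 134, 153 and 131 CPM in Wnt3a libraries and 138, 154 and 143 CPM in vehicle libraries. RFX5 fell by 1.22 on the log2 scale against Wnt3a (edgeR adjusted p = 1.66e-05), and its partner RFXAP fell by 2.49 (edgeR adjusted p = 2.77e-05) to 1.02 to 1.40 CPM in inhibitor libraries, against 5.12 to 8.13 CPM in Wnt3a libraries. The third subunit, RFXANK, differed by 0.06 (edgeR adjusted p = 0.679). CREB1 rose by log2 1.06 (edgeR adjusted p = 6.83e-05) and NFYC, a subunit of NF-Y, by 1.16 (edgeR adjusted p = 0.000191). EED, a subunit of the Polycomb complex that can silence class I genes, fell by 0.60 on the log2 scale (edgeR adjusted p = 0.00562), and its catalytic partner EZH2 rose by log2 0.39 (edgeR adjusted p = 0.00381). RFX5 and RFXAP fell and CREB1 and NFYC rose in all 20 alternative analyses of this comparison. On the log2(TPM + 1) scale the list had 2 rises and 3 falls.

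Genes of interferon signalling changed in both directions at the RNA level, and signalling itself was not measured. Of 13 receptor and transducer genes, 6 rose and 2 fell in each comparison with the inhibitor, with medians of 0.58 against Wnt3a and 0.50 against vehicle. IRF9, the DNA-binding subunit of the complex that binds the ISRE, had 66.4, 73.1 and 55.9 CPM in inhibitor libraries, 13.0, 13.8 and 18.0 CPM in Wnt3a libraries and 16.2, 15.9 and 19.2 CPM in vehicle libraries. It rose by log2 2.13 against Wnt3a (SE 0.157, edgeR adjusted p = 7.75e-06) and 1.93 against vehicle (edgeR adjusted p = 1.13e-05). STAT3 rose by log2 1.45 (edgeR adjusted p = 0.000228) and SOCS3, a feedback inhibitor, by 1.12 (edgeR adjusted p = 0.00459), while SOCS1, another, fell by 1.44 (edgeR adjusted p = 0.00656), as did IFNAR2, a chain of the type I interferon receptor, whose call held in 14 of 20 alternatives. Of 36 interferon-induced genes, 13 rose and 3 fell against Wnt3a, and 11 rose and 3 fell against vehicle, with medians of 0.56 and 0.47. The guanylate-binding protein genes GBP1 and GBP2 rose by log2 2.11 and 2.63 (edgeR adjusted p = 5.67e-06 and 1.67e-05) and IFIT3 by 1.69 (edgeR adjusted p = 0.000216), whereas IFIT5 fell by 0.93 (edgeR adjusted p = 0.000361), and so did XAF1, held in 12 of the 18 alternatives that tested it, and SAMHD1, held in 17 of 20. The other 20 did not pass against Wnt3a. On the log2(TPM + 1) scale 11 of the 36 rose and 3 fell.

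**Figure D4:**
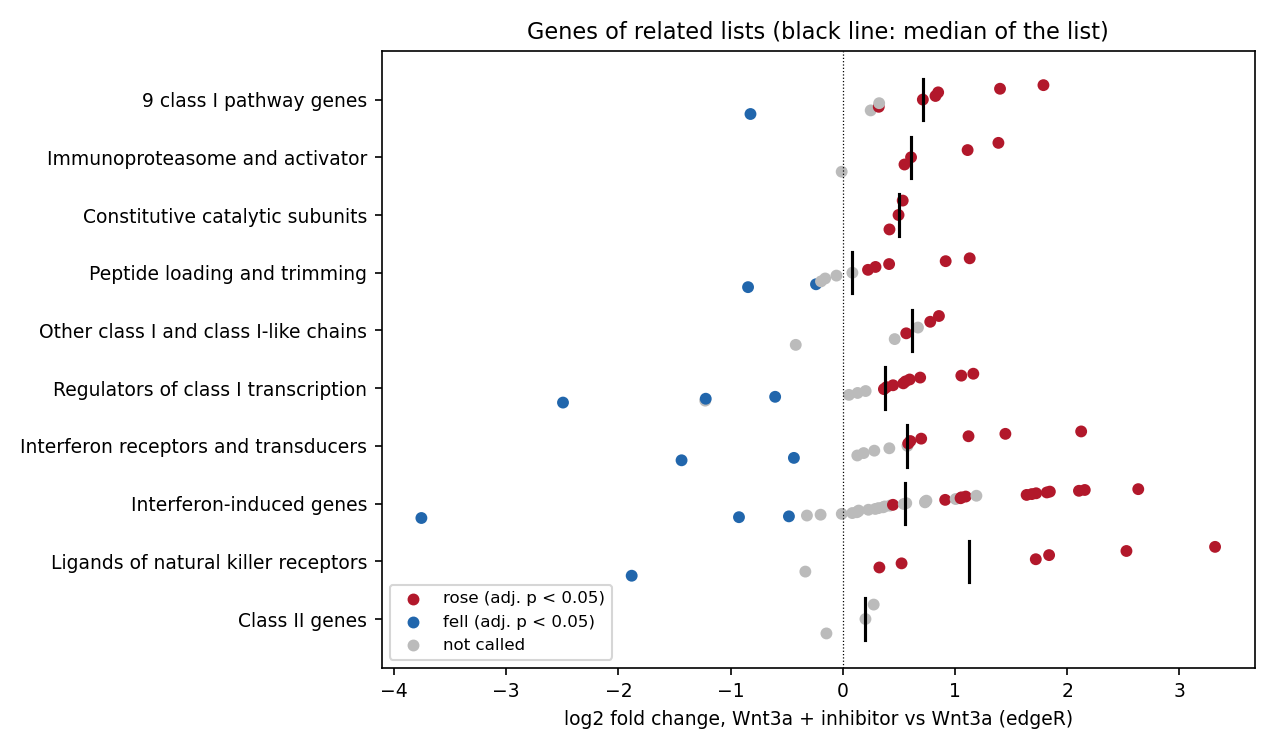
Log2 fold change of inhibitor against Wnt3a cells (edgeR) for each tested gene of the lists, with the 9 class I pathway genes in the top row. Red points rose and blue points fell at adjusted p under 0.05, grey points did not pass, and black lines are list medians, which run from 0.09 for peptide loading and trimming to 1.12 for ligands of natural killer receptors.

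Ligands of activating and other natural killer receptors, which together with class I decide whether such a cell attacks, had the highest median of these lists. Of 8 measured, 6 rose and 1 fell against Wnt3a and 5 rose and 1 fell against vehicle, with medians of 1.12 in both. MICA, a ligand of NKG2D, had 106, 70.9 and 66.5 CPM in inhibitor libraries, 15.8, 15.5 and 10.8 CPM in Wnt3a libraries and 13.2, 18.0 and 13.8 CPM in vehicle libraries. It rose by log2 2.53 against Wnt3a (SE 0.222, edgeR adjusted p = 1.89e-05). MICB and ULBP1, also ligands of NKG2D, rose by log2 1.72 and 1.84 (edgeR adjusted p = 2.13e-05 and 0.000165), and NECTIN2, a ligand of DNAM-1 and TIGIT, rose by 0.52 (edgeR adjusted p = 0.000825). NCR3LG1, which encodes the NKp30 ligand B7-H6, fell by 1.88 on the log2 scale (edgeR adjusted p = 9.14e-05). Of 9 MHC class II genes listed, 6 had too few counts to test, HLA-DRA was at 0 in every library, and none of HLA-DPA1, HLA-DPB1 and HLA-DMA passed with edgeR, DESeq2 or limma-voom in any comparison, or at an unadjusted p under 0.05 with edgeR, while limma on log2(TPM + 1) called HLA-DPB1 lower against Wnt3a (adjusted p = 0.0151) and against vehicle (adjusted p = 0.00941).

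In Wnt3a against vehicle cells edgeR and limma-voom called 0 genes in each of these 9 lists, and DESeq2 called 1 interferon-induced gene lower. At an unadjusted p under 0.05 the counts were 5 of 36 interferon-induced genes, 2 of 5 immunoproteasome genes, 1 of 11 loading and trimming genes, 1 of 6 other class I chains and 0 in the other 5 lists, where 7.62% of all genes tested were under it.

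The genes whose pattern over the 9 libraries was most like that of TAP1, by the root mean square difference of centred log2(CPM + 1), were MICB at 0.085, ATF7 at 0.090 and NFKB2 at 0.092, and 0.675% of 14076 genes were within 0.2. For HLA-B the nearest were EEF1B2P3 at 0.148, RP11-11N9.4 at 0.180 and LINC01176 at 0.191, with 0.0568% within 0.2. TPM4, PHTF2 and SLC39A6 were nearest to B2M, and PDCD6IP, CLTC and GID8 to NLRC5, where 10.6% and 20.1% of genes were within 0.2. Likeness of this kind was thus rare for HLA-B and common for NLRC5. The measure is not scaled for the size of change, so a gene that varies little, such as NLRC5, has many others near it. These shares therefore do not compare the shape of the patterns alone. The genes named as nearest to HLA-B were, like HLA-B, highest in inhibitor replicate 1.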

How the data were processed

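Per the submitters' processing notes, the authors used CASAVA 1.8.2, Trimmomatic 0.36, STAR 2.5.2a and RSEM 1.2.31 with build hg38. Which annotation release and strand setting the counting used is not given in the sources used here. The deposited tables hold, per the file headers, RSEM expected counts, TPM, FPKM and mean transcript lengths per gene, with 1 library to a table. Of 58278 rows, 45 second rows of an ID were summed with the first.

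Expected counts were rounded to whole numbers and tested with edgeR 4.0.16 (quasi-likelihood test, TMM factors, filterByExpr, all 3 groups in a single fit) in R 4.3.3, with Benjamini-Hochberg adjustment over 17880 genes and a threshold of 0.05. Deposited TPM values were used for levels between genes and for ratios, and FPKM for an alternative of the ratio. Ratios were compared by exact permutation tests. Alternatives used other size factors, filters, DESeq2 1.42.0, limma 3.58.1 (voom, and trend on log2(TPM + 1)), an effective length offset, 2 groups only, a replicate block, a threshold of 0.01 and leaving out each library. Leaving out the libraries at the low end of the second principal component was added after seeing the data.

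The 9 genes and all lists were chosen with earlier results of these data known. All 9 were to be named whatever they did, and from each list the 4 called genes with the smallest adjusted p, or all called where 5 or fewer. CALR, RFXANK, EZH2, NECTIN2 and PSME2 were named after their values were seen. Likeness was searched among genes with a mean of at least 1 CPM. Promoter windows came from RefSeq and gene positions from GENCODE 29, where 7 of the 9 IDs had the same version. Some genes of the lists are not reported here by name.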

Additional observations from a re-analysis of the deposited data

How the results depend on the processing

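TAP1, HLA-E and ERAP1 passed in both inhibitor comparisons under all 20 alternatives, while HLA-B lost its call against Wnt3a in 12 of 20 and against vehicle in 5 of 20. Of the 9 genes, 7 passed in each inhibitor comparison, and with limma-trend on log2(TPM + 1) 3 passed against Wnt3a and 4 against vehicle. With it B2M was at -0.10, TAPBP at -0.018 and NLRC5 at -0.042 against Wnt3a, and TAPBP at -0.054 and NLRC5 at -0.12 against vehicle. With library totals NLRC5 was at -0.00075 against Wnt3a and TAPBP at -0.092 against vehicle. The cause was not tested. Between Wnt3a and vehicle, where none of the 9 passed, signs turned for HLA-C (0.0090), TAP2 (0.14) and NLRC5 (-0.076) with limma-trend, for TAP2 (0.078) and NLRC5 (-0.19) with the length offset, and for HLA-B (-0.14), TAP1 (0.10) and NLRC5 (-0.057) without the libraries at the low end of the second component. Leaving out 1 library at a time gave -0.23 to 0.24 for HLA-B, -0.28 to 0.034 for HLA-C, -0.093 to 0.014 for TAP2, -0.080 to 0.15 for NLRC5 and -0.37 to 0.013 for the log2 ratio of heavy chains to B2M. B2M passed against Wnt3a with DESeq2 (adjusted p = 0.0477). Against vehicle it failed in 2 of 20 alternatives, with library totals (edgeR adjusted p = 0.0548) and with limma-trend on log2(TPM + 1) (limma adjusted p = 0.256). Genes called between Wnt3a and vehicle numbered 75 with edgeR and 20 to 299 over the alternatives, with the lowest value without vehicle replicate 3, 26 without vehicle replicate 1, 32 without Wnt3a replicate 2, 48 without vehicle replicate 2, 47 without Wnt3a replicate 1 and 140 without inhibitor replicate 1, and the highest with DESeq2. With the replicate block 8, 7 and 0 of the 9 passed in inhibitor against Wnt3a, inhibitor against vehicle and Wnt3a against vehicle, but same-numbered libraries correlated between -0.18 and 0.42, so the numbers are not shown to pair them. Precision is limited by 3 libraries a group and, for NLRC5, by 218 to 321 counts a library.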
